A study of Saccharomyces cerevisiae with 16 samples.

Results

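The 8 RNA-seq libraries of the series, out of 16 samples in all, were compared here for one quantity: how far the RNA response to the auxin indole-3-acetic acid (IAA) at 8 h differed from the response at 1 h. The members are every RNA library of both times, chosen by the labels and not by any measured value. The other 8 samples are ribosome footprints and were not used. All libraries came from the haploid Saccharomyces cerevisiae strain BY4742 with the eIF4E-AID genotype, in which the cap-binding translation factor eIF4E, the product of CDC33, carries an auxin-inducible degron tag at its C-terminus. Cultures were grown in the rich medium YPD at 30 °C to mid-log phase and were treated for either 1 h or 8 h with IAA at 500 µM or with DMSO, its solvent. Each of the 4 groups held 2 libraries labelled as biological replicates. Every group carries the degron, and no library of a strain without it was analysed, so loss of eIF4E and IAA itself cannot be told apart.

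eIF4E binds the cap of an mRNA and brings the ribosome to it, and in yeast it is essential. A tagged protein is removed soon after IAA is added, and RNA levels can then change directly or with altered growth and nutrient use. A response at 1 h can therefore persist, fade, turn round or appear only later. RNA was selected for poly(A) tails with oligo(dT) beads at 1 h while at 8 h an rRNA depletion kit was used, and all libraries were then built with the same directional kit. Time and preparation cannot be told apart, so levels were not compared between the times. Each time was read against its own DMSO libraries, and the reported difference is the log2 fold change of IAA against DMSO at 8 h minus that at 1 h, with its standard error (SE). A difference above 0 is called higher and one below 0 lower.

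Total counts over genes were 32096327 to 50294053 at 1 h and 10182227 to 15072930 at 8 h. The 10 most abundant genes took 7.61 to 11.2% of counts at 1 h and 17.5 to 24.3% at 8 h. Levels below are counts relative to library size (CPM), with sizes scaled by the trimmed mean of M-values (TMM), and replicate 1 is always given first. The mating-type markers matched the strain, since the 4 alpha-cell genes summed to 1623 to 4349 CPM and the 7 a-cell genes to 16.3 to 52.6 CPM, although the a-cell sum was higher with IAA at both times. CDC33 (YOL139C, chromosome XV, 60383 to 61024 of build R64) had 668 and 602 CPM with DMSO and 525 and 441 with IAA at 1 h, and 857 and 932 with DMSO and 648 and 557 with IAA at 8 h. Its IAA libraries lay below the DMSO libraries at both times, and the difference of -0.18 ± 0.19 did not pass the test (edgeR adjusted p = 0.71). Without 1 library it ranged from -0.30 to -0.05. The degron acts on the protein, so this mRNA does not check the labels.

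Of 6451 genes tested, 93 had a response that differed between the times in edgeR's quasi-likelihood test (adjusted p under 0.05). In bulk RNA, fewer cells of a type and less RNA per cell cannot be told apart. In 61 the difference was higher (0.946% of the genes tested) and in 32 lower (0.496%). An absolute difference of at least 0.58, or 1.5-fold, was reached by 60 and 32 of them, and unadjusted p values under 0.05 were found for 522 higher and 506 lower. These genes were few beside the responses themselves. At 1 h 1152 genes rose (17.9%) and 1122 fell (17.4%), and at 8 h 696 rose (10.8%) and 797 fell (12.4%). Both times gave a call for 1004 genes, and 986 of these kept their direction, 455 rising and 531 falling at both. The balance at 1 h rests on the scaling, since with the minimum of 0.58 the counts there were 540 rising and 449 falling, against 1119 and 188 with total-count scaling. Another 1270 genes passed at 1 h only, of which 49 had a difference that passed, so most of these are not shown to differ between the times. Across genes, which are not independent replicates, the log2 fold changes at the 2 times had Pearson r 0.44 and Spearman rho 0.58.

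**Figure D1:**
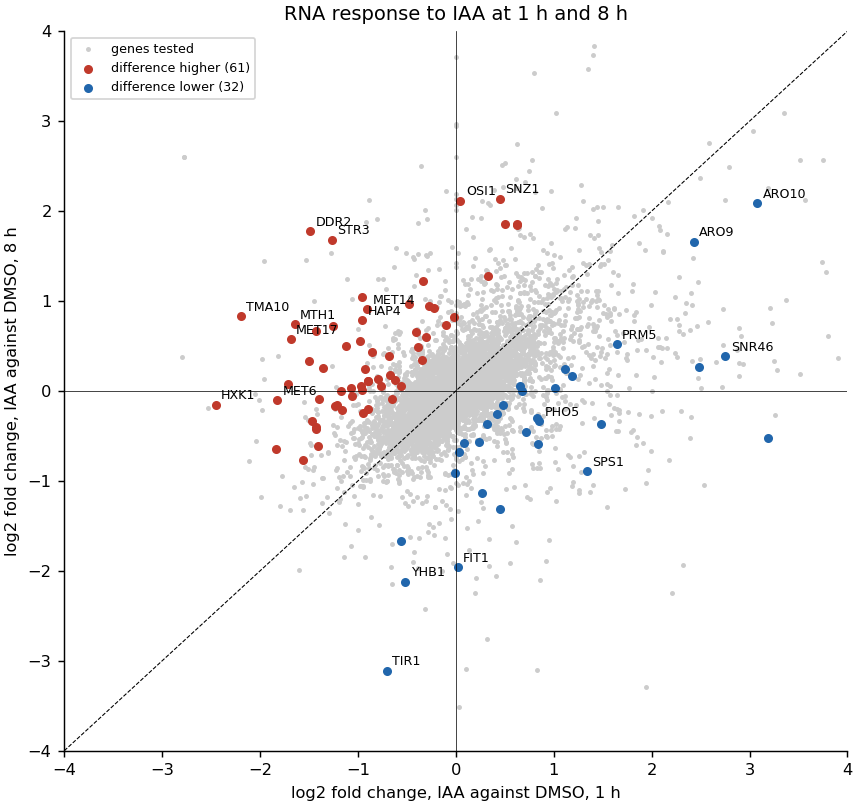
Log2 fold change of IAA against DMSO at 8 h (vertical) plotted against that at 1 h (horizontal), 1 point per gene, with the 61 genes whose difference was higher in red and the 32 lower in blue. Most red points lie left of 0, where RNA fell at 1 h, and 11 genes, 2 of them called, lie outside the axes.

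The 61 higher genes fell into few patterns, read from their calls at each time. The most common, in 32 genes, was a fall at 1 h and no call at 8 h, as in HXK1, MET6 and MUP1. In 12 genes RNA fell at 1 h and rose at 8 h, namely CIN2, DDR2, GRE2, HAP4, MET14, MET17, MET32, MTD1, MTH1, MUP3, STR3 and YML131W. A further 10 rose at 8 h only, 4 fell at both times but less at 8 h (CHO2, HXT2, SAM2, SIS1), and 3 rose at both and more at 8 h (SNZ1, YIL080W, YIL082W-A). Of the 32 lower genes, 17 rose at 1 h only, 7 fell at 8 h only, 4 rose at both but less at 8 h, 2 fell at both and more at 8 h, and 2 rose at 1 h and fell at 8 h (DSE3, FCY21).

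All 93 kept their direction when any 1 library was left out, but many lost the call, as each such fit has 1 library in a group. The number still called was 49 and 35 without 1 h DMSO replicate 1 and 2, 28 and 35 without 1 h IAA replicate 1 and 2, 33 and 28 without 8 h DMSO replicate 1 and 2, and 20 and 22 without 8 h IAA replicate 1 and 2. The 14 genes called in each of these 8 fits were SNR46, MET17, TIR1, MTH1, FIT1, MUP3, MET14, STR3, GRE2, YOR041C, MHT1, MIG2, MET6 and FCY21. With total-count scaling 54 of the 93 stayed called and the share of higher genes among all calls was 29.9% in place of 65.6%, while the median difference over all genes moved by -0.16. With the replicate number within each time as a block, all 93 stayed called and the counts with the fold minimum rose to 140 higher and 75 lower.

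Genes of sulfur metabolism made up the largest called group of any list. Of 27 list members, all tested, 10 were higher and none lower, with a median difference of 0.64 against -0.02 over all genes. Among all genes 0.946% were higher. The median response of the list was -0.44 at 1 h, when 14 fell and 6 rose. It was 0.58 at 8 h, when 15 rose and 4 fell. Among all genes 17.4% fell and 17.9% rose at 1 h, and 10.8% rose and 12.4% fell at 8 h. Of the 27, 5 fell at 1 h and rose at 8 h, 6 rose at both times and 4 fell at both. In 24 of the 27 the difference was above 0, against 47.0% of all genes. Yeast takes up sulfate, activates and reduces it to sulfide, joins the sulfide to a carbon chain to make homocysteine, and methylates this to methionine, the source of S-adenosylmethionine. The transcription factor Cbf1 binds CACGTG in promoters of these genes and works there with Met4, Met28 and the zinc-finger proteins Met31 and Met32.

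Most differences of the sulfur genes were above 0. The 500 bases before each coding start were therefore searched on both strands for CACGTG, which reads the same on either strand. The motif was in 20 of 27 sulfur list promoters (74.1%) and in 8 of the 10 called ones (80.0%), against 361 of 5787 promoters of tested protein-coding genes (6.24%) and 12 of 59 called higher genes (20.3%), the 8 sulfur genes among them. It was also in 4 of 27 called lower genes (14.8%). The windows of STR3 and MHT1 held none. The sites of the 8 called sulfur genes and of the methionine permease gene MUP3 are shown here 5′ to 3′ on the gene's coding strand from the R64 genome with CACGTG in capitals and up to 12 bases on each side, fewer for MET6 where the window ends.
MET14: tgccactaatttCACGTGatcaatatattt
MET16: ttatcatcatttCACGTGgctagtaaaaga
MET17: aatggcaaatggCACGTGaagctgtcgata
MET2: ttgacgtattttCACGTGatgcgcctcact
MET28: gggtactgagtgCACGTGacttattttttt
MET32: tggactaacatgCACGTGacattttgtgat
MET6: tatttCACGTGacttacaaacag
MUP3: ggcaaattcactCACGTGagggcgtgtgct
SAM2: aatatttctaccCACGTGactataattgag
They lie at chromosome XI, 439596 to 439625 (reverse strand, 228 bases before the start of MET14), chromosome XVI, 877793 to 877822 (reverse strand, 178 bases before the start of MET16), chromosome XII, 732230 to 732259 (forward strand, 300 bases before the start of MET17), chromosome XIV, 116984 to 117013 (forward strand, 353 bases before the start of MET2), chromosome IX, 384321 to 384350 (reverse strand, 219 bases before the start of MET28), chromosome IV, 964926 to 964955 (reverse strand, 378 bases before the start of MET32), chromosome V, 342645 to 342667 (reverse strand, 495 bases before the start of MET6), chromosome VIII, 25767 to 25796 (forward strand, 462 bases before the start of MUP3) and chromosome IV, 1454770 to 1454799 (reverse strand, 323 bases before the start of SAM2). A match is a run of letters and not a measured binding site.

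In sulfate activation and reduction, MET14 (YKL001C, chromosome XI, 438777 to 439385), the adenylylsulfate kinase, had 44.7 and 47.1 CPM with DMSO and 25.1 and 23.9 with IAA at 1 h. At 8 h MET14 had 39.1 and 28.4 CPM with DMSO and 60.5 and 65.3 with IAA. The IAA libraries were thus below both DMSO libraries at 1 h and above both at 8 h, and the difference was 1.82 ± 0.19 (edgeR adjusted p = 0.0032). MET16, the reductase that follows it, had 17.7 and 16.1 CPM with DMSO and 21.98 and 20.4 with IAA at 1 h, and 12.3 and 11.6 with DMSO and 26.8 and 31.05 with IAA at 8 h. Its IAA libraries were above DMSO at both times, further so at 8 h, with a difference of 0.95 ± 0.19 (edgeR adjusted p = 0.046). MET16, MET28 and SAM2 are named to complete the 10 called genes, after their values were seen.

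MET17 (YLR303W, chromosome XII, 732542 to 733876), whose enzyme joins sulfide to O-acetylhomoserine, gave the smallest adjusted p of any protein-coding gene. It had 316 and 346 CPM with DMSO and 100.05 and 105 with IAA at 1 h, and 223 and 259 with DMSO and 394 and 325 with IAA at 8 h. The groups did not overlap at either time, and their order was turned round. RNA fell by 1.69 ± 0.13 (SE) at 1 h and rose by 0.58 ± 0.13 at 8 h on the log2 scale, a difference of 2.26 ± 0.18 (edgeR adjusted p = 0.0016). MET2, which makes that O-acetylhomoserine, had 14.9 and 20.3 CPM with DMSO and 4.94 and 8.09 with IAA at 1 h, and 19.1 and 14.5 with DMSO and 30.2 and 22.7 with IAA at 8 h. The difference for MET2 was 2.09 ± 0.37 (edgeR adjusted p = 0.036).

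STR3 (YGL184C, chromosome VII, 154615 to 156012), which makes homocysteine from cystathionine, changed most of the sulfur genes. It had 5.78 and 7.06 CPM with DMSO and 2.51 and 2.83 with IAA at 1 h, and 3.34 and 4.44 with DMSO and 14.1 and 11.1 with IAA at 8 h. The IAA libraries were the lowest of the 1 h set and the highest of the 8 h set, and the difference was 2.94 ± 0.33 (edgeR adjusted p = 0.0051). MET6 and MHT1 encode methyltransferases that turn homocysteine into methionine. MET6, the methionine synthase, had 349.7 and 363 CPM with DMSO and 105 and 95.6 with IAA at 1 h, and 555 and 666 with DMSO and 651 and 489 with IAA at 8 h. MHT1, which uses S-methylmethionine as donor, had 15.5 and 19.1 CPM with DMSO and 5.63 and 6.61 with IAA at 1 h, and 14.3 and 14.5 with DMSO and 18.5 and 17.7 with IAA at 8 h. Both fell at 1 h without overlap of the groups. At 8 h the groups overlapped for MET6, and those of MHT1 did not overlap but differed by only 0.33 ± 0.17. The differences were 1.73 ± 0.22 (edgeR adjusted p = 0.009) and 1.83 ± 0.23 (edgeR adjusted p = 0.0079).

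The regulators moved as well. MET32, a zinc-finger activator of the pathway, had 3.96 and 5.17 CPM with DMSO and 2.28 and 2.44 with IAA at 1 h, and 3.57 and 2.51 with DMSO and 5.61 and 6.73 with IAA at 8 h, a difference of 2.00 ± 0.38 (edgeR adjusted p = 0.041). MET28, a bZIP cofactor of Met4, had 4.96 and 5.92 CPM with DMSO and 3.78 and 4.01 with IAA at 1 h, and 8.51 and 6.58 with DMSO and 13.9 and 15.4 with IAA at 8 h, a difference of 1.45 ± 0.29 (edgeR adjusted p = 0.046). Both were lower with IAA in every 1 h library and higher in every 8 h library, though the fall of MET28 at 1 h did not pass the test. SAM2, an S-adenosylmethionine synthetase, fell at both times and less at 8 h, with log2 fold changes of -1.56 and -0.77, giving a difference of 0.79 ± 0.16 (edgeR adjusted p = 0.047). MET2, MET32, MET28, MET16 and SAM2 lost the call with total-count scaling and with limma voom, and without the library that mattered most their adjusted p was 0.12, 0.16, 0.18, 0.18 and 0.15. SAM2 also lost it with a replicate block over both times. MET17, MET14, STR3, MET6 and MHT1 stayed called in all of these.

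**Figure D2:**
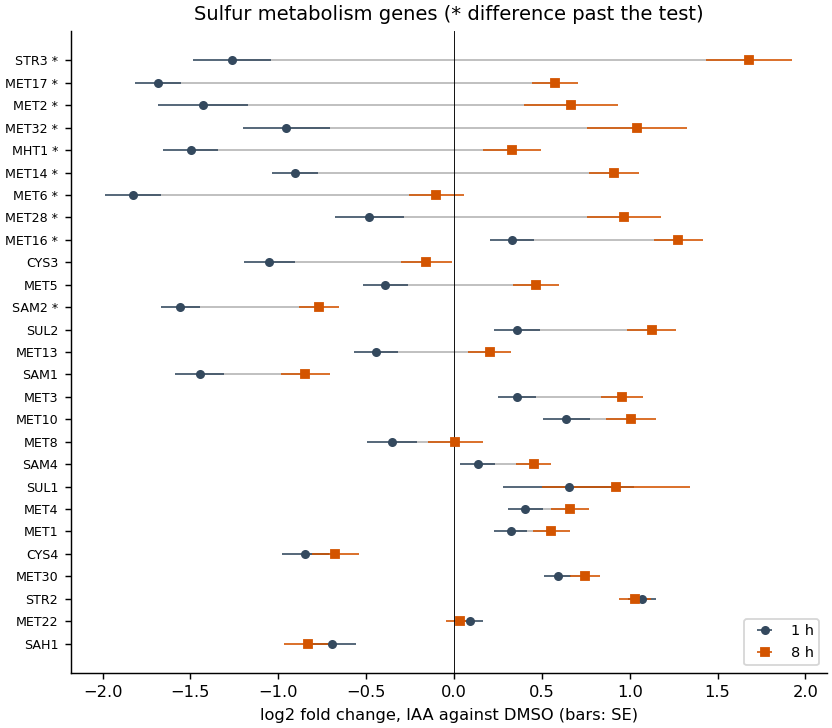
Log2 fold change of IAA against DMSO at 1 h (circles) and 8 h (squares) with SE for the 27 sulfur metabolism genes, ordered by the difference, with an asterisk where it passed the test. In 24 of them the 8 h value lies right of the 1 h value, and the widest gap is that of STR3 at 2.94.

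Permeases for sulfur amino acids were higher as well. Of 21 amino acid permease genes, 3 were higher and none lower, where 0.946% of all genes were higher. These 3 carry methionine or S-methylmethionine. The list median was 0.09 and turned to -0.07 with total-count scaling. MUP3 (YHL036W, chromosome VIII, 26241 to 27881), a low-affinity methionine permease, had 10.02 and 10.04 CPM with DMSO and 4.37 and 4.04 with IAA at 1 h, and 15.9 and 14.8 with DMSO and 24.5 and 26.00 with IAA at 8 h. Its order of groups was turned round, as for MET17, with a difference of 1.97 ± 0.20 (edgeR adjusted p = 0.0028). MMP1, the S-methylmethionine permease, differed by 1.61 ± 0.22 (edgeR adjusted p = 0.011), and MUP1, the high-affinity methionine permease, by 1.00 ± 0.14 (edgeR adjusted p = 0.013). MUP1 had 238 and 232 CPM with DMSO and 117 and 109 with IAA at 1 h but 229.6 and 237 with DMSO and 237 and 212 with IAA at 8 h, where the groups overlapped. GAP1, the general amino acid permease, rose by 0.41 at 1 h and 1.18 at 8 h, and its difference of 0.78 ± 0.18 did not pass (edgeR adjusted p = 0.076). It passed with the replicate block within time (adjusted p = 0.045). CHO2, an enzyme of phosphatidylcholine synthesis that uses S-adenosylmethionine, was named after its values were seen and differed by 1.01 ± 0.18 (edgeR adjusted p = 0.036). Without 1 library the adjusted p of MMP1, MUP1 and CHO2 reached 0.052, 0.052 and 0.13, and CHO2 lost the call with total-count scaling.

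Glucose sensing and transport formed the next group. Of 24 hexose transport and sensing genes, 20 were tested, 3 were higher and none lower, where 0.946% of all genes were higher. Their median difference was 0.71, and 18 of the 20 differences were above 0, against 47.0% of all genes. The median response was -0.67 at 1 h, when 9 fell and none rose. It was 0.05 at 8 h, when 4 fell and 2 rose. Among all genes 17.4% fell at 1 h, and 12.4% fell and 10.8% rose at 8 h. Yeast senses external glucose through Snf3 and Rgt2, which relieve repression of the HXT transporter genes by Rgt1 and its partner Mth1, and glucose repression runs through Mig1 and Mig2. MTH1 (YDR277C, chromosome IV, 1014401 to 1015702) had 18.3 and 21.6 CPM with DMSO and 6.15 and 6.59 with IAA at 1 h, and 9.32 and 8.13 with DMSO and 14.1 and 14.96 with IAA at 8 h. It fell at 1 h and rose at 8 h with no overlap of groups, and the difference was 2.39 ± 0.23 (edgeR adjusted p = 0.0023).

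MIG2, a repressor induced by glucose, had 64.4 and 73.7 CPM with DMSO and 26.5 and 25.99 with IAA at 1 h, and 64.98 and 52.7 with DMSO and 52.9 and 57.05 with IAA at 8 h. The groups were apart at 1 h and overlapped at 8 h, with a difference of 1.30 ± 0.16 (edgeR adjusted p = 0.0079). HXT2, a high-affinity glucose transporter, had 439 and 561 CPM with DMSO and 143 and 137 with IAA at 1 h, and 209 and 219 with DMSO and 152 and 123 with IAA at 8 h. It fell at both times, less at 8 h, with a difference of 1.19 ± 0.20 (edgeR adjusted p = 0.031). SNF3, the low-glucose sensor, differed by 0.87 ± 0.20 and did not pass (edgeR adjusted p = 0.074), though it did with the replicate block within time (adjusted p = 0.042). With that block 6 of the 20 were higher, against 142 of 6451 genes tested. HXK1, a hexokinase of glucose-poor growth that is counted with the stress genes below, had 70.6 and 129 CPM with DMSO and 12.7 and 23.6 with IAA at 1 h, and 63.3 and 62.8 with DMSO and 66.6 and 46.6 with IAA at 8 h. The replicates of HXK1 spread widely at 1 h yet its IAA libraries were well below DMSO there and overlapped with it at 8 h, and the difference was 2.30 ± 0.46 (edgeR adjusted p = 0.046). HXT genes are close copies, and reads that fit several of them may have been left out or split. HXK1 lost the call with total-count scaling and with limma voom, and without 1 library its adjusted p reached 0.16. The call of HXT2 was lost with total-count scaling, and without 1 library its adjusted p reached 0.1.

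Called differences were also found among stress and chaperone genes. Of 25 general stress genes 3 were higher and none lower, where 0.946% of all genes were higher. Their median difference was 0.35. With the replicate block within time 8 of them were higher, against 142 of 6451 genes tested. The median response was -0.72 at 1 h, when 11 fell and 2 rose. It was 0.04 at 8 h, when 4 fell and 6 rose. Among all genes 17.4% fell and 17.9% rose at 1 h, and 12.4% fell and 10.8% rose at 8 h. DDR2 (YOL052C-A, chromosome XV, 231570 to 231755), a gene induced by many stresses, had 1.10 and 3.11 CPM with DMSO and 0.592 and 0.908 with IAA at 1 h, and 5.64 and 4.07 with DMSO and 17.02 and 15.8 with IAA at 8 h. The IAA libraries were below DMSO at 1 h and above it at 8 h, with the highest called difference of any gene, 3.26 ± 0.61 (edgeR adjusted p = 0.041). GRX1, a glutaredoxin, differed by 0.70 ± 0.13 (edgeR adjusted p = 0.041), after a fall of 0.90 ± 0.09 at 1 h. GPD1, the glycerol-3-phosphate dehydrogenase of osmotic stress, differed by 0.88 ± 0.19 and did not pass (edgeR adjusted p = 0.061), but passed with the replicate block within time (adjusted p = 0.045).

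TMA10, whose product associates with ribosomes, had 1.74 and 4.38 CPM with DMSO and 0.456 and 0.860 with IAA at 1 h, and 13.2 and 13.4 with DMSO and 22.3 and 25.2 with IAA at 8 h. The IAA libraries were below DMSO at 1 h and above it at 8 h, where the rise did not pass, with a difference of 3.03 ± 0.56 (edgeR adjusted p = 0.039). GRE2, a methylglyoxal reductase named after its values were seen, had 116 and 84.6 CPM with DMSO and 44.4 and 47.6 with IAA at 1 h, and 121 and 113 with DMSO and 166 and 164 with IAA at 8 h, a difference of 1.63 ± 0.19 (edgeR adjusted p = 0.0059). The element AGGGG, bound by Msn2 and Msn4, was in the promoter windows of all 3 called stress genes, in 27 of 59 called higher genes (45.8%) and in 1971 of 5787 promoters (34.1%), so it is common everywhere. DDR2, TMA10 and GRX1 lost the call with total-count scaling and with limma voom. Without 1 library their adjusted p reached 0.14, 0.15 and 0.14.

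Among 23 heat shock chaperone genes 20 fell at 1 h and 13 at 8 h, with medians of -1.14 and -0.59, where 17.4% and 12.4% of all genes fell. The median difference was 0.37, 1 gene was higher and none lower, and 4 were higher with the replicate block within time. Among all genes 0.946% were higher, and with that block 142 of 6451 genes tested were. The called gene was SIS1, an Hsp40 co-chaperone of Hsp70, which had 128 and 148 CPM with DMSO and 54.2 and 49.7 with IAA at 1 h, and 262 and 285 with DMSO and 192 and 167 with IAA at 8 h. It fell at both times, less at 8 h, with a difference of 0.80 ± 0.16 (edgeR adjusted p = 0.047, and 0.15 at most without 1 library). SIS1 lost the call with total-count scaling, limma voom and a replicate block over both times. HSP82, the inducible Hsp90, differed by 1.49 ± 0.38 (edgeR adjusted p = 0.095) and AHA1, its activator, by 0.78 ± 0.20 (edgeR adjusted p = 0.097). Both passed with the replicate block within time (adjusted p = 0.0098 and adjusted p = 0.029). HSP82 also passed with a replicate block over both times but not with DESeq2, while AHA1 passed with DESeq2. Neither passed with limma voom or total-count scaling.

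Respiratory genes had differences mostly above 0, while few passed the test. HAP4 (YKL109W, chromosome XI, 232227 to 233891) encodes the activating subunit of the complex that switches on nuclear respiratory genes. It had 27.6 and 30.1 CPM with DMSO and 17.6 and 12.2 with IAA at 1 h, and 16.9 and 20.5 with DMSO and 33.9 and 30.9 with IAA at 8 h. The IAA libraries were below DMSO at 1 h and above it at 8 h, and the difference was 1.74 ± 0.26 (edgeR adjusted p = 0.016, and 0.084 at most without 1 library). Of 36 nuclear genes of the respiratory chain, 35 had a difference above 0, against 47.0% of all genes, and the median was 0.55. A single one was called, 18 had an unadjusted p under 0.05, and 10 passed with the replicate block within time. Of all 6451 genes tested, 61 were called higher, and 142 were higher with that block. Unadjusted p values under 0.05 were found for 522 higher and 506 lower genes. At 1 h 13 of the 36 fell and none rose, with a median of -0.40. At 8 h 1 fell and 1 rose, with a median of 0.15. Among all genes 17.4% fell at 1 h and 12.4% at 8 h.

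The called gene was SDH4, a membrane anchor of succinate dehydrogenase, with 36.6 and 33.7 CPM with DMSO and 24.4 and 19.7 with IAA at 1 h, and 69.00 and 59.5 with DMSO and 73.7 and 71.8 with IAA at 8 h. Its IAA libraries were low at 1 h and above DMSO at 8 h, where the rise of 0.18 ± 0.12 did not pass. The difference was 0.86 ± 0.17 (edgeR adjusted p = 0.046). It lost the call with total-count scaling and limma voom, and without 1 library its adjusted p reached 0.15. SDH1, the flavoprotein of the same enzyme, differed by 0.94 ± 0.26 (edgeR adjusted p = 0.12), CYT1, cytochrome c1, by 1.11 ± 0.32 (edgeR adjusted p = 0.13) and QCR9, a small subunit of complex III, by 0.89 ± 0.29 (edgeR adjusted p = 0.17). These 3 passed with the replicate block within time. SDH1 and CYT1 also passed with DESeq2 and QCR9 did not, and none of the 3 passed with limma voom or total-count scaling. Without 1 library the differences ranged from 0.72 to 1.135 for SDH1, from 0.80 to 1.48 for CYT1 and from 0.62 to 1.15 for QCR9.

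The 8 mitochondrially encoded protein genes gave the largest list median, 1.40, yet none of the 8 differences passed the test, while DESeq2 called those of COX2 and COX3. AI2, a mitochondrial gene outside this list, was called higher and rose at 8 h only. At 8 h 7 of the 8 list members rose, with a median of 1.39, where 10.8% of all genes rose. At 1 h none of them passed in either direction, and their median was 0.14. COX2 had 0.457 and 0.197 CPM with DMSO and 0.114 and 0.0955 with IAA at 1 h, and 104 and 73.9 with DMSO and 208 and 279 with IAA at 8 h. COX3 had 0.548 and 0.285 CPM with DMSO and 0.251 and 0.223 with IAA at 1 h, and 156 and 133 with DMSO and 295 and 391.7 with IAA at 8 h. At 8 h both IAA libraries were above both DMSO libraries for either gene, and at 1 h every library was under 1 CPM. Yeast mitochondrial mRNAs have no poly(A) tail. At 1 h the 8 genes summed to 9.91 to 14.86 CPM with DMSO and 17.44 to 18.65 with IAA (of unscaled totals). At 8 h they summed to 1270 to 1494 CPM with DMSO and 3090 to 3944 with IAA. The differences were 2.995 ± 0.79 for COX2 (edgeR adjusted p = 0.11), 2.00 ± 0.51 for COX3 (edgeR adjusted p = 0.099), 2.20 ± 0.64 for COB (edgeR adjusted p = 0.13) and 0.75 ± 0.32 for COX1 (edgeR adjusted p = 0.28), and they rest on those scarce 1 h reads. The part that RNA selection plays in them was not tested. Without 1 library the difference of COB ranged from 0.89 to 3.03 and that of COX1 from 0.28 to 1.07.

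**Figure D3:**
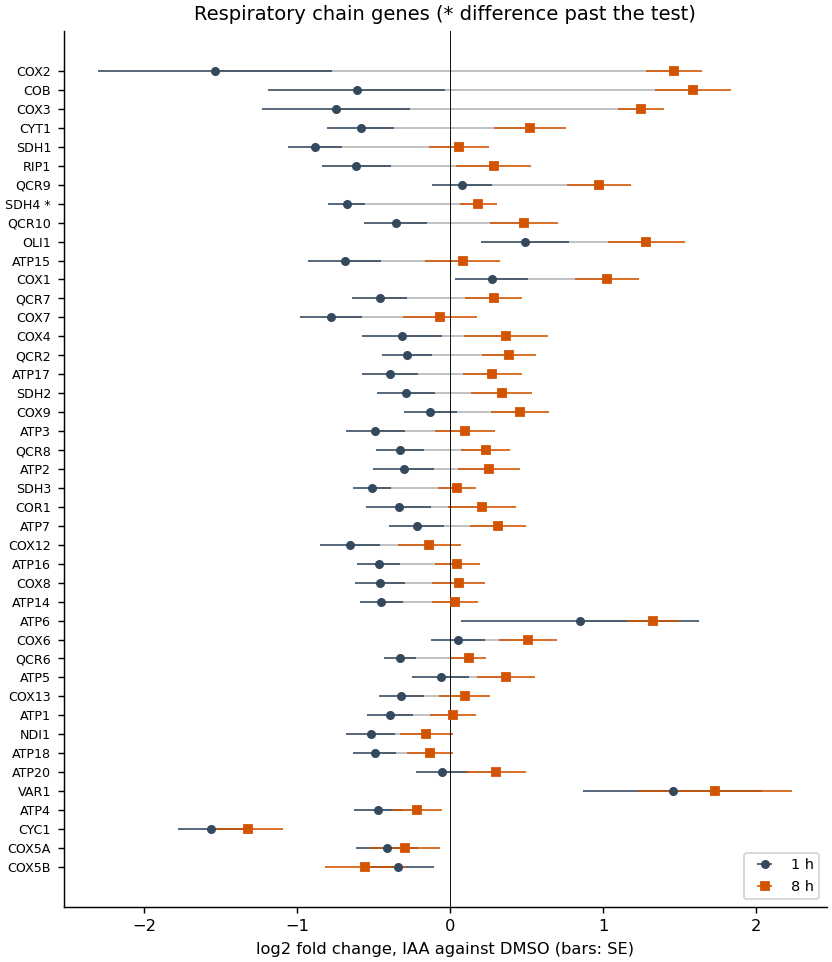
Log2 fold change of IAA against DMSO at 1 h (circles) and 8 h (squares) with SE for 43 respiratory chain genes, 36 nuclear and 7 mitochondrial (ATP8, with no read at 1 h, is left out), ordered by the difference. The 8 h value lies right of the 1 h value for all but COX5B, and the error bars of many pairs overlap.

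GCN4, the activator of amino acid synthesis, had 1280 and 1307 CPM with DMSO and 1462 and 1243 with IAA at 1 h, and 1097 and 927 with DMSO and 1843 and 2083 with IAA at 8 h. It rose at 8 h by 0.96 ± 0.14 and overlapped with DMSO at 1 h, but the difference of 0.89 ± 0.20 did not pass (edgeR adjusted p = 0.069). PCL5, a cyclin that promotes Gcn4 turnover and is itself a Gcn4 target, rose by 1.28 ± 0.24 at 1 h and 2.29 ± 0.25 at 8 h, a difference of 1.01 ± 0.33 (edgeR adjusted p = 0.17). DESeq2 called the difference of both. Without 1 library that of PCL5 ranged from 0.59 to 1.32. All 10 arginine synthesis genes rose at both times, against 455 of 6451 genes tested. Their medians were 1.57 at 1 h and 1.73 at 8 h, and none of their differences passed the test. Among them ARG1, the argininosuccinate synthetase, rose by 2.79 ± 0.30 and 2.49 ± 0.30, and CPA1, a subunit of carbamoyl phosphate synthetase, by 0.69 ± 0.17 and 1.17 ± 0.17. Of 12 aromatic amino acid synthesis genes 7 rose at 1 h and 7 at 8 h, 6 of them at both. Among all genes 17.9% rose at 1 h and 10.8% at 8 h. None of the 12 had a difference that passed, ARO1 of the shikimate pathway among them (-0.03 ± 0.20, edgeR adjusted p = 0.96). Without 1 library the differences ranged from 0.30 to 0.69 for CPA1, from -0.73 to 0.20 for ARG1 and from -0.21 to 0.13 for ARO1.

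Single members of other metabolic lists were higher. Among all genes 0.946% were higher. CAR1, arginase, the 1 gene called of 27 for the use of poor nitrogen sources, had 109 and 98.9 CPM with DMSO and 47.8 and 40.8 with IAA at 1 h, and 158 and 168 with DMSO and 153 and 138 with IAA at 8 h. It fell at 1 h, and at 8 h the IAA libraries were slightly below DMSO without passing the test, with a difference of 1.07 ± 0.15 (edgeR adjusted p = 0.013, and 0.06 at most without 1 library). MDH2, the cytosolic malate dehydrogenase, the 1 gene called of 20 for the TCA cycle and retrograde response, fell by 1.17 ± 0.11 at 1 h and had overlapping groups at 8 h, a difference of 1.17 ± 0.16 (edgeR adjusted p = 0.011, and 0.06 at most without 1 library). In the same list CIT2, a peroxisomal citrate synthase induced by the retrograde response, pointed the other way. CIT2 had 38.2 and 69.5 CPM with DMSO and 175 and 259.6 with IAA at 1 h, and 89.6 and 89.3 with DMSO and 119.6 and 113 with IAA at 8 h, a difference of -1.63 ± 0.36 that did not pass (edgeR adjusted p = 0.062) but did with the replicate block within time (adjusted p = 0.00055). GDH1, the glutamate dehydrogenase that assimilates ammonium, and PUT1, the proline oxidase, differed by 1.16 ± 0.29 (edgeR adjusted p = 0.09) and 0.94 ± 0.25 (edgeR adjusted p = 0.1), and both passed with that block. GDH1 also passed with DESeq2 and PUT1 did not, and neither passed with limma voom or total-count scaling.

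SNZ1 (YMR096W, chromosome XIII, 458408 to 459301), which makes vitamin B6 with its divergent neighbour SNO1, was the 1 gene called of 20 for thiamine and vitamin B6, where 0.946% of all genes were higher. It had 28.1 and 30.97 CPM with DMSO and 39.2 and 41.4 with IAA at 1 h, and 13.9 and 9.02 with DMSO and 45.6 and 53.3 with IAA at 8 h. It rose at both times and more at 8 h, with a difference of 1.69 ± 0.24 (edgeR adjusted p = 0.013, and 0.068 at most without 1 library). SNO1 had 0.731 and 1.27 CPM with DMSO and 1.87 and 3.30 with IAA at 1 h, and 1.15 and 0.961 with DMSO and 10.6 and 14.4 with IAA at 8 h, a difference of 2.23 ± 0.56 that did not pass (edgeR adjusted p = 0.095) but did with the replicate block within time (adjusted p = 0.017). MTD1, a folate enzyme and the 1 gene called of 19 for purine synthesis, turned from a fall of 0.35 to a rise of 0.35, a difference of 0.70 ± 0.13 (edgeR adjusted p = 0.045). CLN3, the G1 cyclin that sets the start of a cell cycle and the 1 gene called of 10 cyclin genes, fell by 0.65 at 1 h and had the smallest called difference, 0.56 ± 0.11 (edgeR adjusted p = 0.046). OSI1 had 4.51 and 4.34 CPM with DMSO and 4.83 and 4.32 with IAA at 1 h, and 1.96 and 2.74 with DMSO and 10.3 and 10.4 with IAA at 8 h, so that it stood out with IAA at 8 h alone (2.07 ± 0.31, edgeR adjusted p = 0.018, and 0.086 at most without 1 library). HAC1, the transcription factor of the unfolded protein response, named after its values were seen, rose at 8 h only, with a difference of 1.14 ± 0.23 (edgeR adjusted p = 0.046). MTD1, CLN3 and HAC1 lost the call with total-count scaling and limma voom, and without 1 library their adjusted p reached 0.15, 0.15 and 0.16. HAC1 also lost it with a replicate block over both times.

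Among the lower genes some fell only at 8 h or fell further then. TIR1 (YER011W, chromosome V, 175248 to 176012), a cell wall mannoprotein and not the plant auxin receptor of the same name, had 37.6 and 53.4 CPM with DMSO and 26.04 and 29.7 with IAA at 1 h, and 141 and 142 with DMSO and 17.5 and 15.2 with IAA at 8 h. It fell at both times, but several-fold further at 8 h, with a difference of -2.40 ± 0.23 (edgeR adjusted p = 0.0023). It was the 1 gene called of 20 for cell wall mannoproteins, where 0.496% of all genes were lower. FIT1 (YDR534C, chromosome IV, 1503314 to 1504900), a mannoprotein that holds siderophore-bound iron at the wall, had 13.7 and 16.1 CPM with DMSO and 12.98 and 17.2 with IAA at 1 h, and 132 and 151 with DMSO and 36.2 and 36.8 with IAA at 8 h. The groups overlapped at 1 h and were far apart at 8 h, with a difference of -1.98 ± 0.20 (edgeR adjusted p = 0.0028). It was the 1 gene called of 21 for iron uptake, where FRE2, a ferric reductase, rose by 1.31 and 0.50 and did not pass (-0.81 ± 0.18, edgeR adjusted p = 0.069), though it did with the replicate block within time (adjusted p = 0.038).

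YHB1, the flavohemoglobin that removes nitric oxide, had 720.2 and 619 CPM with DMSO and 579 and 357 with IAA at 1 h, and 624 and 771 with DMSO and 177 and 144 with IAA at 8 h. Its IAA libraries were below DMSO at both times, but the fall passed the test at 8 h only, a difference of -1.60 ± 0.31 (edgeR adjusted p = 0.045). PLB2, a phospholipase B, fell at both times and more at 8 h, with log2 fold changes of -0.56 and -1.67 (-1.11 ± 0.22, edgeR adjusted p = 0.046). MF(ALPHA)2, an alpha-factor pheromone gene and the 1 gene called of 17 for alpha cells and mating, had 419 and 389 CPM with DMSO and 557 and 412 with IAA at 1 h, and 530.3 and 348 with DMSO and 208 and 192 with IAA at 8 h (-1.40 ± 0.28, edgeR adjusted p = 0.049). It resembles MF(ALPHA)1, so its reads may be left out or split. Beside this 1 call of 17, 0.496% of all genes were lower. ICS2, with no role given here, fell at 8 h only (-0.90 ± 0.16, edgeR adjusted p = 0.036). FCY21, of the purine-cytosine permease family, had 22.9 and 27.7 CPM with DMSO and 35.1 and 34.1 with IAA at 1 h, and 23.00 and 24.8 with DMSO and 7.91 and 11.4 with IAA at 8 h, turning from a small rise to a fall with a difference of -1.76 ± 0.24 (edgeR adjusted p = 0.011). YHB1, PLB2, MF(ALPHA)2 and ICS2 lost the call with limma voom, and without 1 library their adjusted p reached 0.18, 0.18, 0.18 and 0.13. MF(ALPHA)2 also lost it with DESeq2 size factors.

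Several other lower genes rose early and no longer at 8 h. Of 18 phosphate starvation genes 2 were lower and none higher, where 0.496% of all genes were lower. Their median difference was -0.31. With the replicate block within time 5 were lower, against 79 of 6451 genes tested. Of the 18, 5 rose and none fell at 1 h, and 3 rose and 3 fell at 8 h. Among all genes 17.9% rose and 17.4% fell at 1 h, and 10.8% rose and 12.4% fell at 8 h. PHO5 (YBR093C, chromosome II, 429548 to 430951), the main repressible acid phosphatase, had 262 and 287 CPM with DMSO and 503 and 489 with IAA at 1 h, and 146 and 176 with DMSO and 135 and 120.2 with IAA at 8 h. IAA libraries were above DMSO at 1 h and below it at 8 h, where the fall did not pass, and the difference was -1.19 ± 0.17 (edgeR adjusted p = 0.015, and 0.079 at most without 1 library). PHO11 differed by -1.42 ± 0.28 (edgeR adjusted p = 0.045) and PHO12 by -1.04 ± 0.26 (edgeR adjusted p = 0.09), and as near-identical copies they are uncertain one by one. PHO12 had log2 fold changes of 0.16 at 1 h, which did not pass, and -0.88 at 8 h, which did. Its difference passed with the replicate block within time (adjusted p = 0.018) and with DESeq2. PHO11 lost the call with limma voom, and without 1 library its adjusted p reached 0.17. GIT1, a glycerophosphoinositol permease, had 5.51 and 5.04 CPM with DMSO and 16.7 and 14.03 with IAA at 1 h, and 7.71 and 4.51 with DMSO and 6.53 and 5.42 with IAA at 8 h. Its difference of -1.55 ± 0.36 did not pass (edgeR adjusted p = 0.072) but did with the replicate block within time (adjusted p = 0.015).

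Cell separation genes, whose products help a daughter cell part from its mother, had a median difference of -0.54. Of 12, 2 were lower and none higher, 5 rose and none fell at 1 h, and 4 fell and none rose at 8 h. Among all genes 0.496% were lower, 17.9% rose at 1 h and 12.4% fell at 8 h. DSE1 had 339.5 and 349 CPM with DMSO and 764 and 732 with IAA at 1 h, and 222 and 267 with DMSO and 292 and 286 with IAA at 8 h, so its rise was clear at 1 h and small at 8 h (-0.88 ± 0.17, edgeR adjusted p = 0.045). DSE3 had 103 and 103 CPM with DMSO and 120.5 and 137 with IAA at 1 h, and 83.96 and 88.9 with DMSO and 66.9 and 67.4 with IAA at 8 h, a rise turned into a fall (-0.69 ± 0.13, edgeR adjusted p = 0.039). PRY3, of the cell wall, and SCW11, a glucanase, differed by -1.24 ± 0.27 (edgeR adjusted p = 0.06) and -0.81 ± 0.18 (edgeR adjusted p = 0.069), and neither passed, while PRY3 did with the replicate block within time (adjusted p = 0.013). DSE3 lost the call with limma voom, and without 1 library the adjusted p of DSE1 and DSE3 reached 0.15 and 0.14.

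PRM5, a membrane protein induced by pheromone and cell wall stress, had 43.9 and 51.1 CPM with DMSO and 132 and 165 with IAA at 1 h, and 95.00 and 77.99 with DMSO and 127 and 120.4 with IAA at 8 h. It rose at both times, less at 8 h, with a difference of -1.12 ± 0.19 (edgeR adjusted p = 0.033, and 0.14 at most without 1 library). SPS1, a kinase of sporulation and the 1 gene called of 11 meiotic markers, had 3.96 and 2.61 CPM with DMSO and 8.91 and 7.66 with IAA at 1 h, and 2.30 and 2.51 with DMSO and 1.38 and 1.22 with IAA at 8 h, a difference of -2.24 ± 0.41 (edgeR adjusted p = 0.039). Meiotic markers as a whole summed to 54.2 to 111 CPM, so they were scarce throughout. Beside this 1 call of 11, 0.496% of all genes were lower. ATG22, which exports amino acids from the vacuole, differed by -0.98 ± 0.16 (edgeR adjusted p = 0.025), VPS73, of vacuolar sorting, by -1.13 ± 0.22 (edgeR adjusted p = 0.046) and AAD4, an aryl-alcohol dehydrogenase homologue, by -1.03 ± 0.21 (edgeR adjusted p = 0.046). All 3 rose at 1 h and gave no call at 8 h. SPS1, VPS73 and AAD4 lost the call with limma voom, and without 1 library their adjusted p reached 0.16, 0.18 and 0.15. VPS73 also lost it with a replicate block over both times, and the adjusted p of ATG22 reached 0.096 without 1 library.

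The Ehrlich pathway breaks amino acids down to fusel alcohols, and its genes ARO9 and ARO10 are switched on by Aro80 with aromatic amino acids. Of 12 genes of the pathway 2 were lower and none higher, with a median difference of -0.37, where 0.496% of all genes were lower. ARO10 (YDR380W, chromosome IV, 1234218 to 1236125), the phenylpyruvate decarboxylase, had 45.4 and 49.6 CPM with DMSO and 401 and 401 with IAA at 1 h, and 39.3 and 42.9 with DMSO and 192 and 158 with IAA at 8 h. ARO9 (YHR137W, chromosome VIII, 375709 to 377250), the aromatic aminotransferase, had 85.7 and 90.7 CPM with DMSO and 472 and 478 with IAA at 1 h, and 72.1 and 67.2 with DMSO and 229 and 209.9 with IAA at 8 h. Both genes were several-fold above DMSO in every IAA library of either time. Their rises were smaller at 8 h, with differences of -0.99 ± 0.16 (edgeR adjusted p = 0.029) for ARO10 and -0.77 ± 0.14 (edgeR adjusted p = 0.039) for ARO9. Without 1 library the adjusted p reached 0.094 and 0.14, and the differences stayed within -1.14 to -0.86 and -0.84 to -0.71. ARO80 itself differed by -0.27 ± 0.17 (edgeR adjusted p = 0.46), or -0.40 to -0.12 without 1 library, and ATF2, an alcohol acetyltransferase, by -0.88 ± 0.19 (edgeR adjusted p = 0.059, adjusted p = 0.0076 with the replicate block within time).

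**Figure D4:**
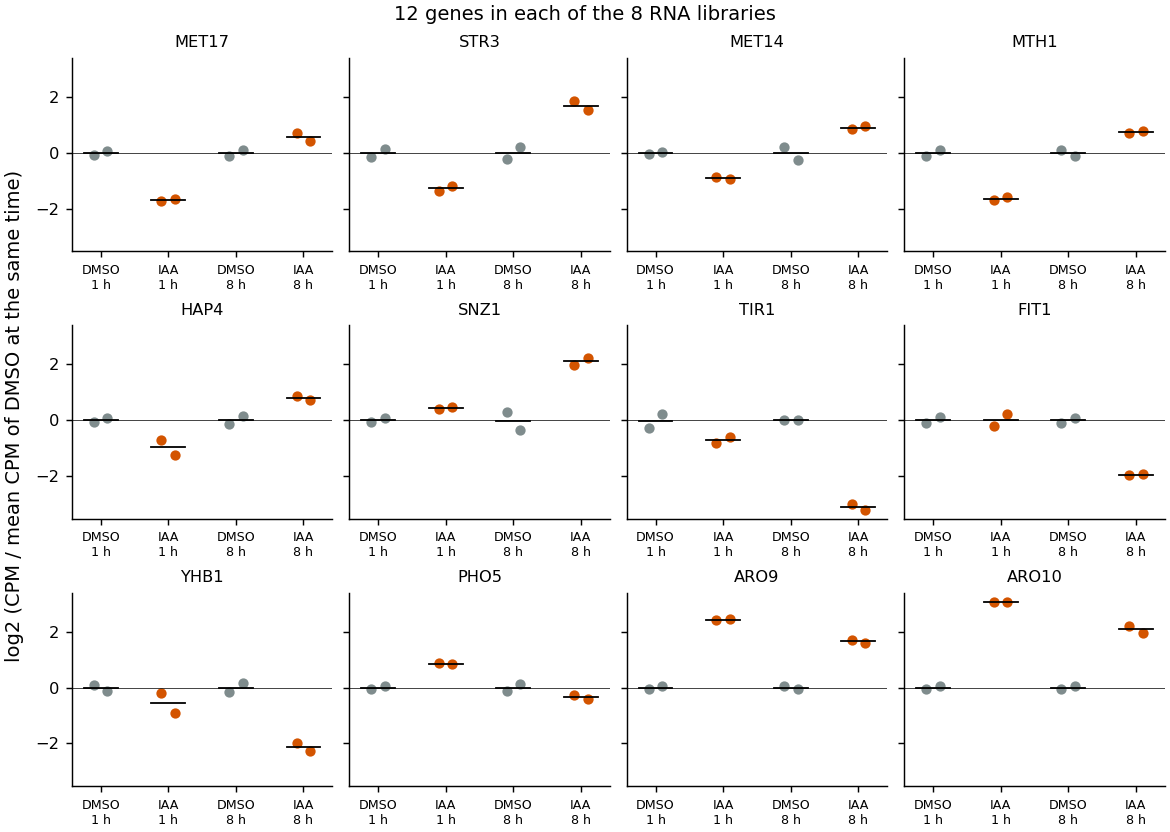
Log2 of CPM over the mean DMSO CPM of the same time for 12 genes, with 1 point per library, grey for DMSO and orange for IAA, and a line at each group's mean. Points run from -3.21 to 3.08, and the IAA points of MET17, STR3, MET14, MTH1 and HAP4 lie below 0 at 1 h and above it at 8 h.

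Small nucleolar RNAs, which guide rRNA modification and processing, gave 2 lower and no higher calls among 74 tested, where 0.496% of all genes were lower. Their median difference was -0.41, with 35 rising at 1 h and 18 at 8 h and none falling at either. Among all genes 17.9% rose at 1 h and 10.8% at 8 h. SNR46 (chromosome VII, 545370 to 545566) had 4.29 and 3.73 CPM with DMSO and 28.7 and 25.2 with IAA at 1 h, and 73.03 and 56.3 with DMSO and 86.9 and 81.7 with IAA at 8 h, a difference of -2.36 ± 0.20 (edgeR adjusted p = 0.0016). SNR30 (chromosome XII, 198784 to 199389), needed for the small ribosomal subunit, had 14.2 and 9.88 CPM with DMSO and 75.6 and 58.03 with IAA at 1 h, and 4153 and 2269 with DMSO and 3512 and 4202 with IAA at 8 h (-2.22 ± 0.40, edgeR adjusted p = 0.039). Both rose at 1 h. At 8 h neither passed the test, the groups of SNR30 overlapped and the IAA libraries of SNR46 stayed above DMSO. Mature snoRNAs have no poly(A) tail, and in all their share of counts ran from 0.02425 to 0.0682% at 1 h but from 1.60 to 3.94% at 8 h. The part that RNA selection plays in these differences was not tested. The first of these genes and SNR30 were named after their values were seen. Without 1 library the adjusted p of SNR30 reached 0.14.

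Most lists held no called gene. Of 46 lists, 18 held a called gene and 28, with 633 members tested, held none. In 26 of these, leaving out the mitochondrial genome and lists under 5 genes, the median difference lay between -0.17 and 0.44. Glycolysis and fermentation genes fell at both times in 15 of 21 cases, with medians of -0.92 at 1 h and -0.87 at 8 h. Proteasome genes did so in 20 of 35, with medians of -0.57 and -0.35. Of all 6451 genes tested 531 fell at both. Proteins of the large and small ribosomal subunit had median differences of 0.05 and 0.06 and ribosome assembly genes of -0.11, with no call among 76, 56 and 95. The first 2 medians turned to -0.11 and -0.10 with total-count scaling. Translation initiation factors had a median of -0.33 at 1 h and -0.43 at 8 h, and no difference among 28 passed. The SE of a difference had a median of 0.18 and the smallest called difference was 0.56. Differences as large as those of GCN4 (0.89 ± 0.20) and CTR1 of the zinc and copper list (1.39 ± 0.46) did not pass. Nor did that of COX2, scarce at 1 h (2.995 ± 0.79). A list without a call may thus still hold shifts of such sizes.

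**Figure D5:**
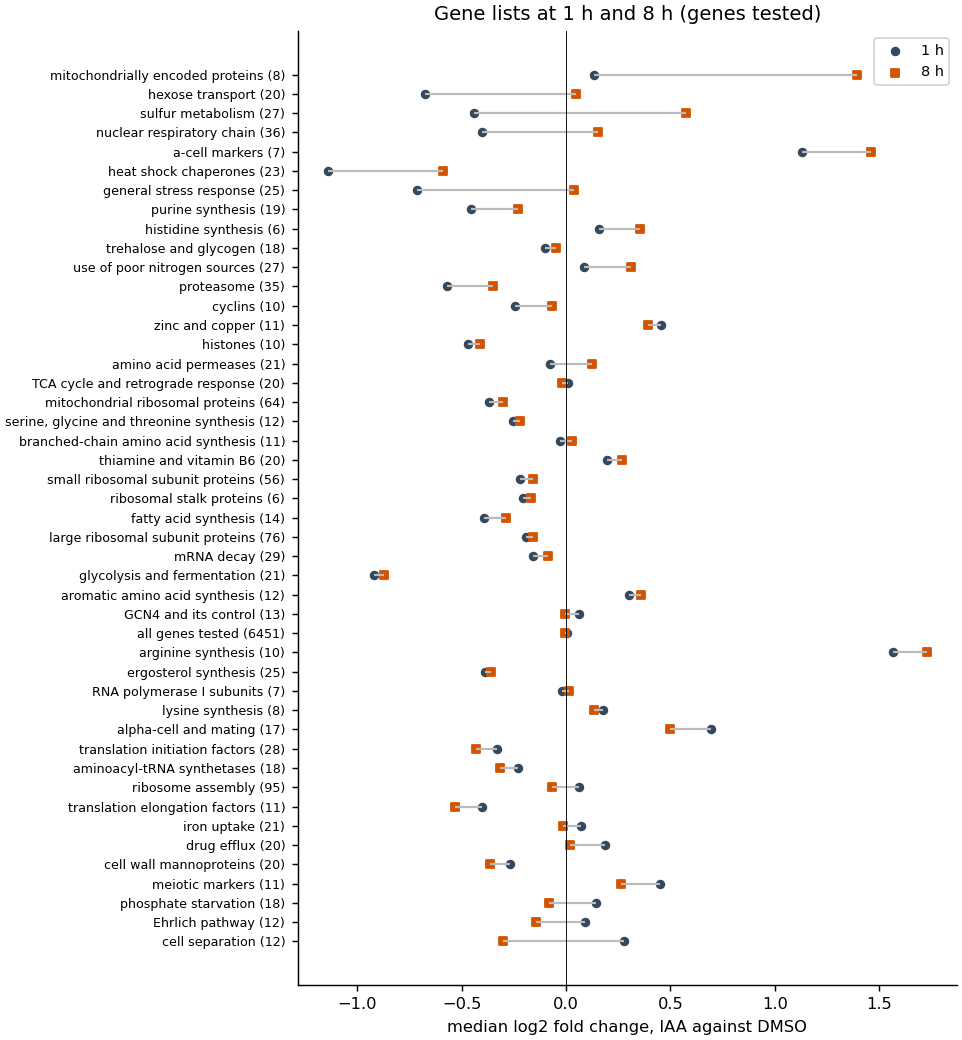
Median log2 fold change of IAA against DMSO at 1 h (circles) and 8 h (squares) for 45 lists with at least 5 genes tested and for all genes, ordered by the median difference, with the number of genes tested in brackets. Lists that cross from below 0 at 1 h to above it at 8 h include hexose transport, sulfur metabolism, nuclear respiratory chain, general stress and amino acid permease genes. Those that cross the other way include cell separation, phosphate starvation and Ehrlich pathway genes. Arginine synthesis genes stay at 1.57 and 1.73.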

How the data were processed

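RNA was measured in 8 libraries. Per the study's methods and the submitters' processing notes, the authors trimmed reads with cutadapt, aligned them with STAR to the yeast genome (R64, sacCer3) and deposited raw counts per gene. How reads were counted, and whether strand was used, is not given in the sources used here. Overlapping genes may therefore have lost or shared reads. The authors' own tests used DESeq2. Entries that name no gene, among them ambiguous and not uniquely aligned reads, held 21.7 to 31.2% of each table and were left out. Of 7126 features, 6169 had an entry in the reference annotation.

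The counts were filtered with filterByExpr, TMM-scaled and fitted over all 8 libraries with a term per group (edgeR 4.0.16, R 4.3.3), using the quasi-likelihood test with Benjamini-Hochberg adjustment over 6451 genes. Library totals of 10182227 to 50294053 counts set the precision. Alternatives were other scalings and filters, DESeq2 1.42.0, leaving out each library, and a replicate block. Another was limma 3.58.1 voom with weights by time, called limma voom here. The block for the calls within a time was added after seeing the data. The fit was tested on simulated data. The text names CDC33, GCN4, PCL5, ARO1, ARO9, ARO10 and ARO80, up to 15 genes per direction with the largest called difference (mean counts of 50 or more, single-library ratios of the times apart), and up to 4 members per list with the smallest adjusted p. The members and lists were chosen with earlier results of these data known.

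Deviations of same-numbered libraries from their group means correlated within a time (0.446 at 1 h and 0.484 at 8 h) and less between times (-0.006 to 0.121), so the number was taken as a block within time. The pairing comes from these correlations and not from the labels. None of the uncalled genes said to pass with this block passed with limma voom. The p values measure the spread between libraries labelled as biological replicates.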

Additional observations from a re-analysis of the deposited data

Results flagged for a closer look

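The test of the difference itself, an interaction between treatment and time in edgeR, was passed by 61 genes with a higher and 32 with a lower response at 8 h. Time and RNA selection cannot be told apart in any of these, and all values here are log2 differences between the times.

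In sulfur metabolism the differences were 2.94 for STR3, 2.26 for MET17, 2.09 for MET2, 2.00 for MET32, 1.83 for MHT1, 1.82 for MET14, 1.73 for MET6, 1.45 for MET28, 0.95 for MET16 and 0.79 for SAM2. Their permeases gave 1.97 for MUP3, 1.61 for MMP1 and 1.00 for MUP1, and CHO2 gave 1.01. For glucose use, they were 2.39 for MTH1, 2.30 for HXK1, 1.30 for MIG2 and 1.19 for HXT2. Stress and chaperone genes had 3.26 for DDR2, 3.03 for TMA10, 1.63 for GRE2, 0.80 for SIS1 and 0.70 for GRX1. Other higher genes were OSI1 with 2.07, HAP4 with 1.74, SNZ1 with 1.69, MDH2 with 1.17, HAC1 with 1.14, CAR1 with 1.07, SDH4 with 0.86, MTD1 with 0.70 and CLN3 with 0.56.

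Among the lower genes, TIR1 had -2.40, FIT1 -1.98, YHB1 -1.60, MF(ALPHA)2 -1.40, PLB2 -1.11 and ICS2 -0.90. Those with a rise at 1 h were FCY21 with -1.76, SNR46 with -2.36, SNR30 with -2.22, SPS1 with -2.24, PHO11 with -1.42, PHO5 with -1.19, VPS73 with -1.13, PRM5 with -1.12, AAD4 with -1.03, ARO10 with -0.99, ATG22 with -0.98, DSE1 with -0.88, ARO9 with -0.77 and DSE3 with -0.69.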

How the results depend on the processing

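With an absolute log2 difference of at least 0.58, 60 genes were higher and 32 lower. These counts were 23 and 54 with total-count scaling, 146 and 69 with DESeq2, 30 and 14 with limma voom, and 140 and 75 with the replicate block within time (67 and 38 with a replicate block over both times). The cause was not tested, except that total-count scaling moved the median difference by -0.16. Leaving out 1 library gave 15 to 48 higher and 5 to 15 lower genes, from fewer samples. At 1 h total-count scaling gave 1119 rising and 188 falling genes in place of 540 and 449. At 8 h leaving out 1 library gave 220 to 436 rising and 151 to 357 falling genes in place of 374 and 266. The uncalled difference of ARO1 ranged from -0.21 to 0.13 without 1 library (0.042, 0.066 and 0.134 where it turned) and that of ARG1 from -0.73 to 0.20 (0.010 and 0.205 where it turned). No called difference among the 52 named turned direction or moved over 1.5 times without a library. Having 2 libraries a group and scarce RNA without poly(A) at 1 h limit what these data can show.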
